A study of Homo sapiens with 18 samples.

Results

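Whole-cell small RNA was compared here with nuclear RNA and with cytoplasmic RNA of SSB-depleted HEK293T cells, to ask which small noncoding RNAs took a whole-cell share that lay outside the range set by both fractions. The members were the rows of at most 500 nt in the deposited count table, with rows holding the same counts in every library taken once. This left 6410 distinct rows of the 175935 rows in the table, of which 2030 had enough counts to be tested. The 9 libraries were siSSB total, siSSB nuc and siSSB cyto with 3 replicates each, out of 18 libraries in all. HEK293T is a human embryonic kidney line, and all 18 libraries came from it. Cells had been transfected with an siRNA against SSB with the lipid reagent RNAiMAX for 48 h. RNA was then taken from unfractionated cells (total), from nuclei (nuc) and from cytoplasm (cyto) with the mirVana PARIS kit. All 9 libraries carry the words Plus_PNK in their titles, so the treatment with PNK, a kinase that works on RNA ends, was shared by the 3 groups. The scramble siRNA libraries (control) have the same 3 groups and are used only where siSSB cells are set beside control cells. The labels do not say what the replicates are, and the study's methods describe them as biological and as handled on a single day. P-values are set against the spread between these libraries, which is estimated for each row partly from the other rows. No row carries the name SSB, and the level of the targeted mRNA was not checked here.

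SSB encodes La, a protein that binds the uridine-rich tails that RNA polymerase III (Pol III) leaves on its transcripts and shields them while they mature. Transfer RNAs, 5S rRNA, Y RNAs, vault RNAs, 7SK, U6, RMRP and snaR-A are made by Pol III. Small nucleolar RNAs (snoRNAs) are mostly cut out of introns of Pol II transcripts. They reside in the nucleolus, where C/D snoRNAs guide ribose methylation and H/ACA snoRNAs guide pseudouridylation, and the related scaRNAs guide the same modifications on small nuclear RNAs (snRNAs) in Cajal bodies. Mature tRNAs, Y RNAs, vault RNAs and microRNAs act largely in the cytoplasm.

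Each value is a share, the counts of a row as a percent of the counts of all distinct rows of at most 500 nt in that library. If an unfractionated sample is a mixture of a pair of fractions, the share of an RNA in it lies between the shares of the fractions, so the shares were compared without further scaling. In these bulk samples a larger share of one RNA and smaller shares of the others cannot be told apart, nor can fewer cells and less RNA per cell. The small-row sums of the 9 libraries were 2880542 to 6321541 counts, and 3 counts, the floor below which a row cannot be told from 0, made up 4.75e-05% to 1.04e-04% of them. Against the fraction labels, C/D and H/ACA snoRNAs had higher shares in nuc than in cyto, and tRNA, Y RNA, vault RNA and mitochondrial tRNA had higher shares in cyto than in nuc, with no overlap of the libraries. The nuclear RNA 7SK went the other way, with 0.0227%, 0.0335% and 0.0238% in the 3 nuc libraries against 0.339%, 0.404% and 0.467% in the cyto libraries. Minor snRNA, also nuclear, was higher in cyto (0.711%, 0.945% and 0.627%) than in nuc (0.322%, 0.428% and 0.311%). So were U2, U4 and U5 together, with 6.18%, 6.85% and 5.51% in cyto against 4.49%, 5.25% and 3.96% in nuc. U6 and U7 were higher in cyto as well, without overlap, though by a narrow margin in U6. The shares of RMRP, RNase P RNA, scaRNA, U1 and 7SL overlapped between nuc and cyto. Single libraries stood apart in some RNAs. RMRP was 0.153% in siSSB nuc replicate 2 against 0.0477% and 0.0472% in the other nuc libraries. In siSSB total replicate 2 it was 0.188% against 0.0968% and 0.0711%.

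Most rows had a higher share in whole cells than in nuclei. Of the 2030 rows tested, 1548 (76.3%) were higher in siSSB total than in siSSB nuc and 220 (10.8%) were lower, at an adjusted p under 0.05 by edgeR's quasi-likelihood test. The median difference over all rows tested was 2.89 on the log2 scale. Against cytoplasm the order was the other way, with 203 rows (10%) higher in total and 1090 rows (53.7%) lower, and a median log2 difference of −1.18. Scaling decides this balance. Of the rows that passed, 87.6% were higher than in nuc and 15.7% were higher than in cyto, whereas with TMM factors, which assume that most rows do not change, these shares were 68.0% and 92.4% and the medians 1.12 and −0.16. The count of rows lower than in cyto was 609 without siSSB total replicate 1, 701 without siSSB total replicate 3 and 642 without siSSB cyto replicate 3.

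The RNA classes took different places. C/D snoRNAs made up 48.0%, 41.7% and 54.0% of the counts in the total libraries, 76.5%, 72.0% and 80.1% in nuc and 7.59%, 10.3% and 7.72% in cyto. The total libraries thus lay between both fractions, with a log2 difference of −0.67 ± 0.17 (SE, n = 3 per group) from nuc and 2.49 ± 0.18 from cyto. H/ACA snoRNAs made up 0.360%, 0.485% and 0.411% in total, 2.48%, 3.73% and 2.24% in nuc and 0.231%, 0.322% and 0.265% in cyto. All 3 total libraries held far less H/ACA snoRNA than any nuc library, and were little above the cyto libraries. The log2 difference was −2.75 ± 0.27 from nuc and 0.62 ± 0.25 from cyto (adjusted p = 0.033, edgeR), and the latter was −0.091 with column sums as library size.

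**Figure D1:**
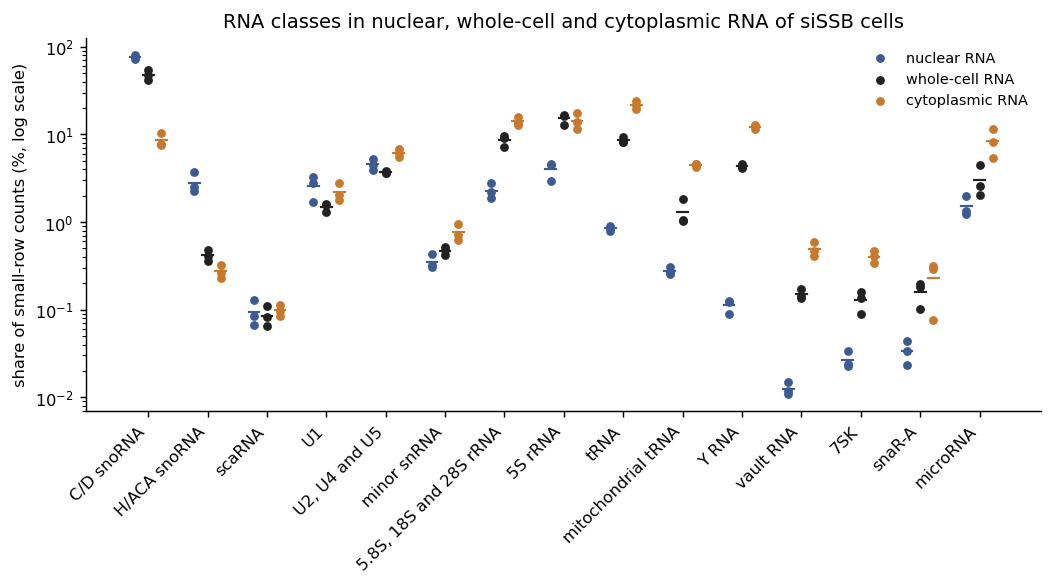
Share of small-row counts (percent, log scale) of 15 RNA classes in the 9 siSSB libraries, where each point is a library and each bar the mean of 3. C/D snoRNA falls from nuclear over whole-cell to cytoplasmic RNA, tRNA and Y RNA rise in that order, and the 3 whole-cell points of H/ACA snoRNA (0.360% to 0.485%) lie near the cytoplasmic ones.

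To read these values on 1 scale, the place of each total library was computed, with 0 at the mean cyto share and 1 at the mean nuc share of a class, for the 18 classes whose nuc and cyto libraries did not overlap in siSSB cells. A mixture of the fractions gives every class the same place. The mean place of C/D snoRNA was 0.58 (0.49 to 0.67 over the 3 total libraries), near those of tRNA (0.63, 0.59 to 0.65), Y RNA (0.65, 0.64 to 0.67) and vault RNA (0.71, 0.67 to 0.74). H/ACA snoRNA stood at 0.057 (0.034 to 0.083) and 5S rRNA at −0.10 (−0.25 to 0.13). The 3 total libraries of both did not overlap with those of C/D snoRNA, tRNA, Y RNA or vault RNA. The short rows of 5.8S, 18S and 28S rRNA stood at 0.46 (0.39 to 0.58), and mitochondrial tRNA at 0.76 (0.64 to 0.82). Other classes stood elsewhere or varied between libraries, with snaR-A at 0.35 (0.17 to 0.65), BC200 at 0.56 (0.17 to 0.82), U6 at 0.95 (−0.0013 to 1.47) and U2, U4 and U5 at 1.54 (1.47 to 1.59). In control cells the place of H/ACA snoRNA was 0.12 (0.071 to 0.20) and that of 5S rRNA 0.14 (0.043 to 0.19), against 0.65 for C/D snoRNA. There snaR-A stood at −1.15 (−1.86 to −0.75) and minor snRNA at −0.072 (−0.65 to 0.42), against 0.71 (0.61 to 0.85) for minor snRNA in siSSB cells. For H/ACA snoRNA, higher in nuc, a low place is near the smaller share. For 5S rRNA, snaR-A and minor snRNA, higher in cyto, it is toward or beyond the larger share. In control cells snaR-A held 0.840%, 0.567% and 0.595% in total, 0.351%, 0.410% and 0.390% in cyto and 0.116%, 0.0744% and 0.224% in nuc. Each of those total libraries was thus above both fractions.

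**Figure D2:**
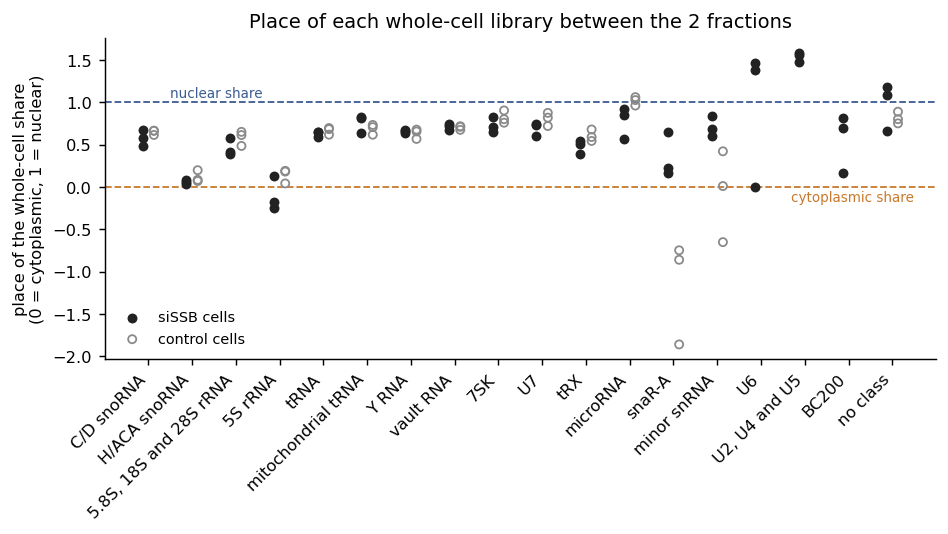
Place of each whole-cell library between the mean cytoplasmic share (0) and the mean nuclear share (1) of 18 classes, the rows of no class included, with 3 siSSB libraries as filled and 3 control libraries as open points, drawn where the fractions of those cells did not overlap. H/ACA snoRNA lies between 0.034 and 0.20 and 5S rRNA between −0.25 and 0.19, and the open points lie at −1.86 to −0.75 for snaR-A and −0.65 to 0.42 for minor snRNA. A low place is near the smaller share for H/ACA snoRNA, and toward or beyond the larger share for 5S rRNA, snaR-A and minor snRNA.

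A ratio of 2 classes within a library does not depend on the library size. In siSSB total, 0.750, 1.16 and 0.761 H/ACA counts were found per 100 C/D counts. The values were 3.24, 5.18 and 2.80 in nuc and 3.05, 3.12 and 3.44 in cyto. The ratio was thus lower in every whole-cell library than in any library of either fraction, although 3 against 3 libraries cannot give a p below 0.1 in an exact two-sided permutation test, so that no p under 0.05 could be reached. The control libraries gave the same order, with 1.33, 0.788 and 0.770 in total, 2.49, 3.83 and 4.67 in nuc and 2.25, 2.49 and 1.77 in cyto. For 5S rRNA per 100 tRNA counts, siSSB total (198, 180 and 159) lay between nuc (512, 580 and 327) and cyto (79.8, 72.0 and 48.2).

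Row by row, most H/ACA snoRNAs shared a direction against nuc, with log2 differences of −7.15 to 1.69. Of 117 tested, 90 were lower in total than in nuc and 2 higher, and 17 were higher than in cyto and 2 lower. None was above both fractions. The class holds only rows with a SNORA name, so H/ACA snoRNAs under other names were not counted. The median log2 difference was −1.85 from nuc and 0.48 from cyto. In the 94 H/ACA rows whose fractions did not overlap, the median place was 0.075, and 61 stood under 0.1. The largest fall among rows with a mean of at least 50 counts was that of SNORA47, an H/ACA snoRNA at chr5:77080409-77080596. It held 0.0403%, 0.0938% and 0.0370% of nuc counts against 15, 7 and 27 counts in the total libraries and 13, 3 and 8 counts in the cyto libraries. Every total library was thus far below every nuc library and as sparse as cyto, with a log2 difference from nuc of −7.15 ± 0.55. SNORA80B followed with −5.81 ± 0.51, at 10, 5 and 10 counts in total. SNORA18, the H/ACA snoRNA with the highest whole-cell share, held 0.0233%, 0.020% and 0.0473% in total, 0.365%, 0.668% and 0.328% in nuc and 0.00927%, 0.0112% and 0.00993% in cyto.

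C/D snoRNAs lay on both sides of the nuclear share, with log2 differences from nuc of −5.63 to 4.56. Of 180 tested, 73 were lower in total than in nuc and 42 were higher, 156 were higher than in cyto and 5 lower, and 65 were both lower than nuc and higher than cyto. The median log2 difference was −0.36 from nuc and 2.15 from cyto. In the 162 rows with fractions apart, the quartiles of the place were 0.20, 0.50 and 1.12, and 48 rows stood over 1, beyond the nuclear share. SNORD44, a guide for 18S rRNA methylation encoded in an intron of GAS5, had the highest mean share of the C/D snoRNAs in the total libraries. It held 13.2%, 10.3% and 12% of total, 22.9%, 20.1% and 22.9% of nuc and 2.36%, 3.09% and 2.16% of cyto counts. SNORD48, from an intron of SNHG32, lay at the low end. It held 0.0286%, 0.0218% and 0.0320% in total against 1.15%, 1.76% and 1.18% in nuc and 0.00888%, 0.00778% and 0.00757% in cyto, a log2 difference of −5.63 ± 0.33 from nuc and 1.77 ± 0.28 from cyto. SNORD105B (−1.18 ± 0.36 from nuc, 3.63 ± 0.40 from cyto) and SNORD14E (0.94 ± 0.48, edgeR adjusted p = 0.073, and 3.57 ± 0.55) had among the largest differences from cyto.

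**Figure D3:**
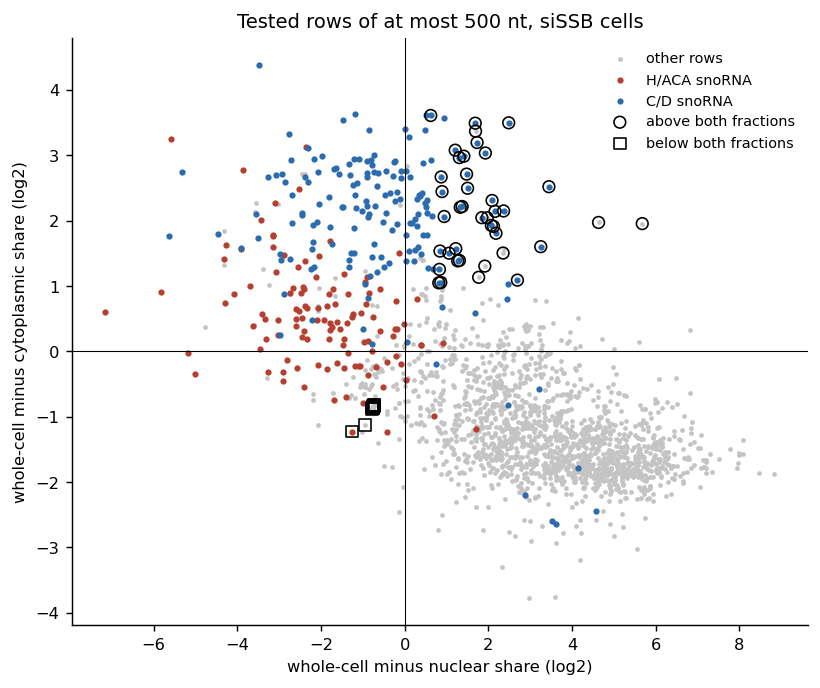
Log2 difference of the whole-cell share from the nuclear share (x axis) and from the cytoplasmic share (y axis) of the 2030 tested rows, with 40 rows above both fractions circled and 14 below both in squares. H/ACA snoRNAs (red) lie mostly left of 0 and near 0 on the y axis, C/D snoRNAs (blue) lie high and spread to both sides of 0, and most other rows lie at the lower right, higher than nuclear and lower than cytoplasmic.

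A whole-cell share above both fractions was found in 40 rows (1.97% of those tested), and 32 of them were C/D snoRNAs. This is 17.8% of the 180 C/D snoRNAs tested. Of the other 8 rows, 1 was a microRNA and 7 were of no class, among them Gm24148 and NONHSAG007759.2, which overlap SNORD20 and SNORD14B. The rows of no class named RF00393, RF00265 and RF00494 are annotated as snoRNA. These names were not assigned to C/D or H/ACA snoRNAs here, so rows of either kind may be among them. The row lnc-C11orf54-1, also of no class, overlaps an RF00494 row. The 40 rows fell into 37 separate loci, and in 34 of them the 3 total libraries overlapped neither the nuc nor the cyto libraries. Together the 40 rows held 7.0%, 6.13% and 7.52% of total counts, 3.14%, 2.78% and 3.38% of nuc counts and 0.872%, 1.16% and 1.00% of cyto counts. The rows were chosen by these shares, so total comes first by choice and the sums are a description. Their log2 differences were 0.62 to 5.68 from nuc and 1.05 to 3.61 from cyto. The count was 26 without siSSB cyto replicate 1 and 22 rows were called whichever of the 9 libraries was left out. With TMM factors 18 rows were called, of which 4 were among the 40, and with the sum over rows other than snoRNA and scaRNA 15 rows, of which 7 were among the 40. SNORD14A and MIR7974 were above both under each of 6 other scalings and without each library.

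SNORD14A, SNORD56 and SNORD98 had the largest differences by the smaller of both comparisons. Their genomic sequences (hg38) are shown because they carry the C/D architecture that most of the rows above both fractions share. SNORD14A spans chr11:17074654-17074744 on the minus strand in an intron of RPS13, SNORD56 chr20:2656624-2656694 on the plus strand in an intron of NOP56, and SNORD98 chr10:68755172-68755238 on the plus strand. Capitals mark TGAT, the core of box C, and CTGA, box D.
SNORD14A: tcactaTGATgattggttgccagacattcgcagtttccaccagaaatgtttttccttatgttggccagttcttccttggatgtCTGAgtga
SNORD56: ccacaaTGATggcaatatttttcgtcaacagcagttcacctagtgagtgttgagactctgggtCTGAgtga
SNORD98: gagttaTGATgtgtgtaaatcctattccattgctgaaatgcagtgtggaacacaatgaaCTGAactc
For contrast, SNORD48 (chr6:31835263-31835326, plus strand) was far below its nuclear share, and SNORA47 (chr5:77080434-77080571, minus strand) is an H/ACA snoRNA with its 3′ ACA in capitals.
SNORD48: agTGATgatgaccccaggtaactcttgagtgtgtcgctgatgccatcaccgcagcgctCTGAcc
SNORA47: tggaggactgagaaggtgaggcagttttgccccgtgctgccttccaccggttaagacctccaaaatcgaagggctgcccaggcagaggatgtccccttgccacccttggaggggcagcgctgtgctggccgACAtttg

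TGAT within the first 15 bases together with CTGA within the last 20, on the transcribed strand, was found in 23 of the 31 C/D snoRNAs above both for which a sequence was taken, in 55 of the 65 below nuc and above cyto, in 138 of all 179 and in 1 of 117 H/ACA snoRNAs. The rows above both were 80 nt long in the median (59 to 218 nt) with 42.9% GC, and those below nuc and above cyto were 77 nt long (60 to 142 nt) with 45.6% GC. The ranges of length overlapped. The median nuclear share was 0.00729% above both and 0.165% below nuc and above cyto, whereas the median whole-cell share was 0.0243% and 0.0358%. The category of a row rests on the same shares, so these medians are a description.

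SNORD14A had 99, 144 and 103 counts in total, 18, 18 and 11 in nuc and 11, 14 and 22 in cyto. As shares these were 0.00254%, 0.00431% and 0.00221% in total, and no fraction library exceeded 0.000764%. The log2 difference was 3.45 ± 0.47 from nuc (adjusted p = 2.1e-07, edgeR) and 2.52 ± 0.46 from cyto (adjusted p = 0.00015). It has paralogs, SNORD14B to SNORD14E, and how reads were split among them is not given in the sources used here. SNORD56 held 0.0519%, 0.0398% and 0.0600% in total, 0.00830%, 0.00826% and 0.0105% in nuc and 0.00342%, 0.00567% and 0.00434% in cyto. All total libraries were above all others, by 2.49 ± 0.37 from nuc and 3.50 ± 0.39 from cyto on the log2 scale. SNORD98 held 0.0336%, 0.0323% and 0.0295% in total against 0.00642%, 0.00504% and 0.00708% in nuc and 0.00648%, 0.00754% and 0.00750% in cyto. Its fractions overlapped with each other, and the log2 difference was 2.36 ± 0.37 from nuc and 2.15 ± 0.37 from cyto.

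The other rows named for a large difference also had total libraries that overlapped with no fraction library, which was a condition for naming them. SNORD15B differed by 2.16 ± 0.45 from nuc and 2.14 ± 0.46 from cyto, with 0.00587%, 0.0173% and 0.00560% in total, where replicate 2 was the highest. SNORD138 differed by 2.09 ± 0.41 and 2.31 ± 0.42, and its row at chr5:86620522-86620591 lies inside a gene that GENCODE types as a microRNA. SNORD20, from an intron of the nucleolin gene NCL, differed by 1.84 ± 0.38 and 2.05 ± 0.39, and its difference from nuc was −0.019 with TMM factors. SNORD28 differed by 1.93 ± 0.38 and 3.03 ± 0.40, and SNORD169 by 2.18 ± 0.42 and 1.81 ± 0.42. SNORD127 had the largest difference from cyto of the rows above both, 3.61 ± 0.30, and only 0.62 ± 0.27 from nuc. Its difference from nuc was −1.09 with TMM factors, −1.0 in DESeq2 and −0.69 with the sum over rows other than snoRNA and scaRNA.

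**Figure D4:**
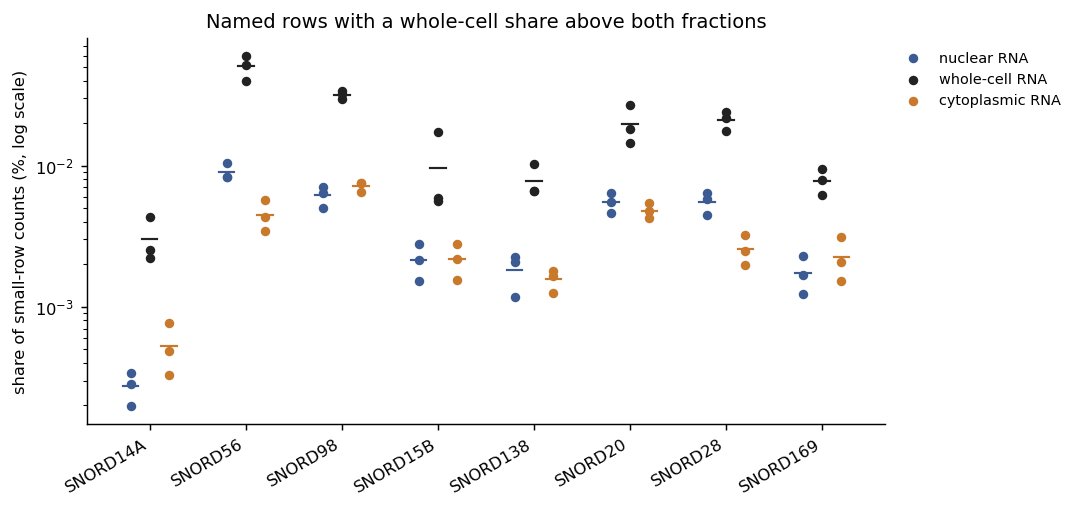
Share of small-row counts (percent, log scale) of the 8 rows with C/D snoRNA names that were named for the largest differences from both fractions, where each point is 1 siSSB library and each bar the mean of 3. In each the 3 whole-cell points lie above all nuclear and cytoplasmic points, which was a condition for naming the row.

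Abundant C/D snoRNAs were among the rows above both as well. The following were chosen after their values were seen. SNORD30 held 2.34%, 1.81% and 2.68% of total counts, 1.01%, 0.792% and 0.965% of nuc and 0.239%, 0.344% and 0.293% of cyto counts, so each total library was above each nuc library, by 1.31 ± 0.25 on the log2 scale. SNORD59B, from an intron of ATP5F1B, held 1.35%, 1.2% and 1.57% of total against 0.747%, 0.654% and 0.854% of nuc counts. SNORD82, which shares the host gene NCL with SNORD20, held 0.984%, 0.856% and 0.867% of total against 0.343%, 0.291% and 0.383% of nuc counts. The U3 snoRNAs SNORD3B-1, SNORD3D and SNORD3C, which act in pre-rRNA cleavage, also passed, with log2 differences from nuc of 0.81, 0.83 and 2.69. Their copies share reads, and SNORD3B-1 and SNORD3D overlapped with nuc libraries. siSSB total replicate 2 held 0.0861% of SNORD3B-1 against 0.0372% and 0.0318% in the other total libraries. Such dependence on 1 library was strongest in the row RF00393 of no class, with 42, 557 and 35 counts in total.

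C/D snoRNAs from 1 host gene did not share 1 place. SNHG1, a noncoding host gene on chromosome 11, had 8 tested C/D rows, given here because 3 were above both and 3 were below nuc and above cyto. Their sequences (hg38, minus strand, in 5′ to 3′ order along the host) are those of SNORD25 (chr11:62855564-62855632), SNORD27 (chr11:62855012-62855083), SNORD28 (chr11:62854621-62854695), SNORD30 (chr11:62853663-62853732) and SNORD31 (chr11:62853326-62853393), with TGAT and CTGA of the boxes in capitals.
SNORD25: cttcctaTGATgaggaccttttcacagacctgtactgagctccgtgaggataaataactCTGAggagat
SNORD27: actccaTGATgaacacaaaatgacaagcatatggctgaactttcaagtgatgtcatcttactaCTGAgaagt
SNORD28: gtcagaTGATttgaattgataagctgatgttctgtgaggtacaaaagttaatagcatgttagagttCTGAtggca
SNORD30: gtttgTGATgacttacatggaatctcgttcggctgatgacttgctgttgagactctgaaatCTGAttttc
SNORD31: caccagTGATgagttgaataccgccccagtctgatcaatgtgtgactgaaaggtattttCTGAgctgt

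SNORD27, SNORD28 and SNORD30 were above both, with log2 differences from nuc of 1.21, 1.93 and 1.31. SNORD28 held 0.0219%, 0.0176% and 0.0238% of total counts against 0.00576%, 0.00445% and 0.00642% of nuc counts. SNORD31 and SNORD25 went the other way, at −3.08 and −2.30, and SNORD22 was at −1.77. SNORD31 held 0.159%, 0.144% and 0.229% of total counts against 1.55%, 1.44% and 1.52% of nuc counts, so its libraries lay below all nuc libraries where those of its neighbour SNORD30 lay above them. SNORD26 (−0.64) and SNORD29 (0.11) did not pass against nuc, and all 8 rows were higher than in cyto. In other hosts, both tested rows were above both fractions in RPS13 (SNORD14A and SNORD14B), RPS3 (SNORD15A and SNORD15B), NCL, ATP5F1B and UBAP2. NOP56 held SNORD56 at 2.49 and SNORD110 at −3.90 from nuc, and SNHG16 held SNORD1A at 1.33 and SNORD1C at −1.47. None of the 10 C/D rows of GAS5 was above both, with log2 differences from nuc of −2.07 to 0.64.

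**Figure D5:**
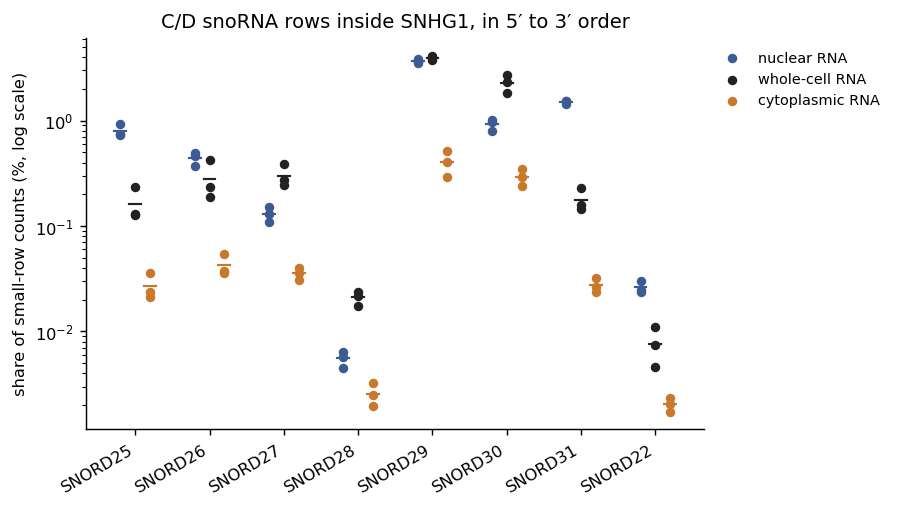
Share of small-row counts (percent, log scale) of the 8 C/D snoRNA rows inside SNHG1, with 1 point per siSSB library and bars at the mean of 3. The whole-cell points lie above the nuclear ones in SNORD27, SNORD28 and SNORD30 and below them in SNORD25, SNORD31 and SNORD22.

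A whole-cell share below both fractions was found in 14 rows (0.69% of those tested). They carry 3 names, because 12 of them are near-identical copies of RNU2-1, the gene of the spliceosomal U2 snRNA, in its cluster on chromosome 17. The copy at chr17:43251807-43252044 held 0.143%, 0.147% and 0.127% of total counts, 0.219%, 0.294% and 0.193% of nuc and 0.246%, 0.300% and 0.211% of cyto counts. Total lay below both without overlap, by 0.76 from nuc (log2 −0.76 ± 0.29) and by 0.86 from cyto (log2 −0.86 ± 0.29). SNORA79B had 48, 57 and 64 counts in total, 183, 230 and 173 in nuc and 87, 92 and 124 in cyto, a log2 difference of −1.26 ± 0.41 and −1.23 ± 0.41. The third name is SCARNA1, with 18, 22 and 26 counts in total. None of the 14 rows was below both with TMM factors, in DESeq2 or with the sum over rows other than snoRNA and scaRNA. With column sums as library size 15 rows were below both, and none of them was among the 14. Leaving out a library mattered too, and 0 or 1 of the 14 was called without siSSB total replicate 1, total replicate 3, cyto replicate 1, cyto replicate 2 or nuc replicate 2. As a class, U1 was lower in total than in nuc (−0.81 ± 0.25) and in cyto (−0.57 ± 0.25, edgeR adjusted p = 0.044), the latter 0.48 with TMM factors. Its rows did not move as the total did, since of 43 tested 20 were higher than in nuc and 12 lower, with a median log2 difference of 0.90, and none was below both. Over all rows tested, 76.3% were higher than in nuc and 10.8% lower. U2, U4 and U5 together differed by −0.30 ± 0.20 from nuc (adjusted p = 0.19, edgeR) and −0.74 ± 0.21 from cyto.

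Y RNAs and vault RNAs were in whole cells mostly between a low nuclear and a high cytoplasmic share. All 280 Y RNA rows tested were higher in total than in nuc and 256 were lower than in cyto, against 76.3% and 53.7% of all rows tested. RNY1 held 0.671%, 0.903% and 0.657% in total, 0.0156%, 0.0117% and 0.0151% in nuc and 2.10%, 2.49% and 2.56% in cyto, so no groups overlapped. Its log2 difference was 5.72 ± 0.30 from nuc and −1.68 ± 0.25 from cyto, against 4.0 and −1.63 for RNY3, 5.43 and −1.51 for RNY4, and 4.55 and −1.19 for RNY5. Of the rows with a mean of at least 50 counts, the Y RNA copy RF00019 at chr3:157153523-157153665 differed from nuc by 6.02 ± 0.32 and stands for the rows of this name, which it exceeds in mean share. At the other end, the Y RNA copy at chr17:30059027-30059172 was 3.03 ± 0.48 lower than in cyto (log2 −3.03), with 20, 13 and 15 counts in total. Y RNA copies share reads, so single copies are uncertain. All 4 vault RNA rows tested were higher than in nuc. VTRNA1-2 held 0.158%, 0.132% and 0.124% in total, 0.010%, 0.0130% and 0.00954% in nuc and 0.433%, 0.378% and 0.555% in cyto. VTRNA1-1 differed by 3.04 and −1.52, and VTRNA1-3 by 1.72 and −0.93, where the latter did not pass (adjusted p = 0.075, edgeR).

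Of 460 tRNA rows tested, 435 were higher in total than in nuc and none lower, and 364 were lower than in cyto and none higher. Over all rows tested, 76.3% were higher than in nuc and 53.7% lower than in cyto. The class total was 8.16%, 9.36% and 8.16% in total, 0.863%, 0.786% and 0.902% in nuc and 21.7%, 19.4% and 23.8% in cyto. The most abundant row, tRNA-Leu-CAA-4-1, differed by 5.73 ± 0.34 from nuc and −1.62 ± 0.28 from cyto. Of 22 mitochondrial tRNAs, 21 were higher than in nuc and all 22 lower than in cyto, with MT-TE at 2.91 ± 0.33 and −1.60 ± 0.31. Beyond the class, NMTRQ-TTG12-1, a nuclear copy of a mitochondrial tRNA sequence, had the largest fall from cyto of the named rows, −3.78 ± 0.45, and a row of no class at chr1:629547-629664, the more abundant of 2 tested copies, differed by −2.01 ± 0.39.

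7SK, a regulator of Pol II elongation, took the same order as the cytoplasmic RNAs. RN7SK held 0.135%, 0.152% and 0.0888% in total, 0.0217%, 0.0321% and 0.0228% in nuc and 0.334%, 0.400% and 0.460% in cyto, a log2 difference of 2.29 ± 0.31 and −1.67 ± 0.30. U7 snRNA (RNU7-1), which acts in histone mRNA processing, differed by 2.68 ± 0.36 and −1.55 ± 0.35. RNU12 of the minor spliceosome differed by 0.83 ± 0.27 and −0.81 ± 0.27, both with the other sign under TMM factors (−0.89 and 0.24). For 5S rRNA, 111 of 115 rows were higher than in nuc and 3 were lower than in cyto, against 76.3% and 53.7% of all rows tested. Its class total was 16.1%, 16.8% and 12.9% in total, 4.42%, 4.56% and 2.95% in nuc and 17.3%, 14.0% and 11.5% in cyto, so total and cyto overlapped. Its difference from cyto was 0.10 ± 0.21 (adjusted p = 0.66, edgeR) and −0.62 with column sums as library size. The rows of 5.8S, 18S and 28S rRNA, all of at most 500 nt (median 262.5 nt over those tested), differed as a class by 1.91 ± 0.21 from nuc and −0.71 ± 0.20 from cyto.

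snaR-A, a Pol III transcript of primates, was higher in total than in nuc in all 14 rows tested, which are near-identical copies. The class total was 0.194%, 0.101% and 0.183% in total, 0.0236%, 0.0440% and 0.0339% in nuc and 0.289%, 0.314% and 0.0772% in cyto. Every total library was above every nuc library, and total and cyto overlapped because siSSB cyto replicate 3 was low. The log2 difference was 2.23 ± 0.39 from nuc and −0.51 ± 0.37 from cyto (adjusted p = 0.21, edgeR). RMRP (0.52 ± 0.39 and −0.00 ± 0.38) and RPPH1, the RNase P RNA (−0.15 ± 0.41 and −0.80 ± 0.42), passed in neither comparison. RN7SL1, the RNA of the signal recognition particle, differed by −0.97 ± 0.41 from nuc and by 0.077 without siSSB nuc replicate 2, where it was high, and RN7SL2 did not pass (−0.86 ± 0.45). BCYRN1 and RNU6ATAC had at most 9 counts in any of the 9 libraries and were not tested.

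Of 347 microRNA rows, 303 were higher in total than in nuc and 253 lower than in cyto, against 76.3% and 53.7% of all rows tested. MIR148A, the microRNA row with the highest whole-cell share, held 0.140%, 0.491% and 0.135% in total, 0.00699%, 0.00834% and 0.00748% in nuc and 0.626%, 0.268% and 1.73% in cyto. Replicates varied widely, and total replicate 2 was above cyto replicate 2. As a class, microRNAs differed by 1.00 ± 0.27 from nuc, a value of −0.81 with TMM factors, although the median of the single rows was 4.46. The nuclear class total was carried by few rows. The 11 microRNA rows lower in total than in nuc held 69.4% to 74.4% of microRNA counts in nuc, 0.846% to 4.82% in total and 0.143% to 0.508% in cyto. They were chosen as lower in total than in nuc, so these values are a description. The larger of 2 overlapping rows of MIR1291, which lies inside the H/ACA snoRNA SNORA2C, held 30.7% to 33.2% in nuc, and a read within both rows is counted in each. Of the 14 microRNA rows that overlap a tested snoRNA or scaRNA row, 8 were lower than in nuc, with a median log2 difference of −1.86. Of the other 333, 3 were lower than in nuc, with a median of 4.54. These 3 were MIR4449, MIR3653, whose row also carries the name SNORD125, and a row inside that of MIR3653. A read cannot be assigned to the microRNA or to the snoRNA around it from these counts.

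MIR1301, MIR330 and MIR7974 are shown as mature RNA because the first and the second had the largest differences from nuc of the named microRNA rows, and MIR7974 was the microRNA row above both. The sequences and positions are those of RefSeq (GRCh38.p14), and capitals mark the seed, bases 2 to 8. hsa-miR-1301-5p lies at chr2:25328689-25328707, hsa-miR-330-5p at chr19:45639049-45639070 and hsa-miR-7974 at chr19:11495544-11495567, each on the minus strand, and each row is that mature RNA with its flanks. No seed is shared.
hsa-miR-1301-5p: cGCUCUAGgcaccgcagca
hsa-miR-330-5p: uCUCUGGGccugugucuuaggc
hsa-miR-7974: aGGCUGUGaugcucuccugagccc
MIR1301 had 131, 193 and 188 counts in total, 4, 0 and 1 in nuc and 432, 313 and 513 in cyto, and MIR330 had 47, 120 and 67 in total, 0, 1 and 2 in nuc and 139, 113 and 272 in cyto. Both were near the floor in nuc and lower in total than in cyto by share. MIR7974 had 50, 48 and 44 counts in total, 4, 1 and 3 in nuc and 10, 4 and 14 in cyto. Its total libraries were above all others, by 4.63 ± 0.57 from nuc and 1.97 ± 0.48 from cyto on the log2 scale.

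The differences of total from each fraction were tested against those of control cells in 1 fit of 18 libraries. Of 2281 rows tested, 1 (0.0438%) had a difference from nuc that differed between siSSB and control cells, and 0 (0%) had a difference from cyto that differed, by edgeR's quasi-likelihood test. At an unadjusted p under 0.05 there were 289 and 216 rows. None of the 40 rows above both or the 14 below both passed, with 5 and 4 of the 40 at an unadjusted p under 0.05 for nuc and cyto. No class total passed, and the lowest adjusted p was 0.097, for 5S rRNA and microRNA against nuc. A difference between siSSB and control cells in these rows was not detected, and its absence is not shown.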

How the data were processed

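Small RNA libraries of HEK293T cells had been made with the NEBNext small RNA kit from total, nuc and cyto RNA, with 3 replicates in each of 6 groups taken from the sample titles. The authors deposited 1 table of raw counts, whole numbers per noncoding RNA row with no normalization. The submitters' processing notes name Bowtie2, bedtools and hg38 without versions. The treatment of reads with several positions is not given in the sources used here. Rows carry flanks of 25 nt, overlapping rows count a read repeatedly, strand was not used in the counting and near-identical copies share reads.

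Rows of at most 500 nt with identical counts were taken once, and classes were assigned by row name. edgeR 4.0.16 (R 4.3.3, limma 3.58.1) was run on the 9 siSSB libraries (glmQLFit, glmQLFTest), with the sum over distinct rows of at most 500 nt as library size, no further factor and filterByExpr. The Benjamini-Hochberg adjustment ran over all 16623 rows tested, long rows included, and for class totals over 23. A row was above or below both where the adjusted p was under 0.05 against each fraction in the same direction. Log2 differences are ± SE, derived from the test statistic. The spread behind them is shared between rows (median prior of 28.0 degrees of freedom), so it is not that of 3 libraries per group alone. The interaction was fitted over 18 libraries. Alternatives were TMM factors, DESeq2 1.42.0, other library sums, no filter, small rows only, 6 libraries per fit, a replicate block, an adjusted p under 0.01 and each replicate left out. The steps were tested on simulated data. Named rows were up to 8 per direction above or below both and up to 3 per direction and comparison by size of the difference (rows of 1 name, or overlapping, given 1 time, by their most abundant copy, even where another copy differed more), with 50 or more counts in the mean of the higher group and ranges of shares apart, a fixed list of small RNAs (SNORD3A has no row of that name here), and the most abundant row of each class. The members and lists were chosen with earlier results of these data known. Reads carry no molecular identifiers, so floors cover counting error only. Host genes are those of GENCODE v44, as are snoRNA ends where a GENCODE entry of that name lay within the row. Elsewhere, as for SNORD31, the ends are those of the row without its flanks.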

Additional observations from a re-analysis of the deposited data

Results flagged for a closer look

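For tRNA-Tyr-GTA-3-1 (chr6:26577079-26577217, hg38), a tRNA copy on chromosome 6, the difference of total from nuc differed between siSSB and control cells by −2.63 ± 0.49 on the log2 scale (siSSB minus control), in a test of the difference itself (edgeR interaction, adjusted p = 0.045). Control cells had 340, 241 and 274 counts in total and 64, 44 and 64 in nuc. siSSB cells had 103, 83 and 214 counts in total and 167, 203 and 175 in nuc, a log2 difference of 0.02. By share, total was thus above nuc in every control library, and in siSSB cells the groups overlapped. Over 22 alternatives the value was −2.97 to −2.47, with an adjusted p of 0.0044 to 0.48, and it passed in 7 of them. Its copies share reads.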

How the results depend on the processing

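Scaling decided most of what moved, and why was not tested. In the order TMM factors, DESeq2 and the sum over rows other than snoRNA and scaRNA, 882, 884 and 1030 rows were higher than in nuc, 416, 404 and 384 lower, 352, 367 and 313 higher than in cyto and 29, 32 and 57 lower. Above both were 18, 26 and 15 rows, below both 0, 0 and 0, and 3, 7 and 6 of 23 class totals passed against cyto. With column sums 1662 rows were lower than in cyto. Without the top 10 rows in the sum 0 rows were below both and 9 class totals passed against cyto, and without a filter 0 were below both, with 6 and 3 interactions for nuc and cyto. At an adjusted p under 0.01, 640 rows were lower than in cyto, 25 above both, 0 below both and 0 had an interaction with nuc (also 0 with TMM factors).

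Class totals and rows that turned sign did so as follows on the log2 scale, in the same order of settings. Against cyto, the 5.8S, 18S and 28S rRNA total was 0.34, 0.34 and 0.11, U1 0.48, 0.48 and 0.25, U2, U4 and U5 0.33, 0.34 and 0.090, minor snRNA 0.37, 0.37 and 0.13, tRX 0.27, 0.28 and 0.013, RNA5-8SN1;RNA5-8SN4 0.36, 0.36 and 0.11, and RNU12 0.24, 0.24 and 0.0070. Against nuc, U6 was −1.79, −1.72 and −1.30, microRNA −0.81, −0.75 and −0.33, minor snRNA −1.30, −1.23 and −0.89, SNORD127 −1.09, −1.0 and −0.69, and RNU12 −0.89, −0.83 and −0.48. With TMM factors and in DESeq2, RMRP was −1.19 and −1.15 against nuc, as a row and as a class, and RNU2-1 0.20 and 0.20 against cyto. With TMM factors SNORD20 was −0.019 against nuc, and in DESeq2 the RMRP and scaRNA totals were 0.91 and 0.80 against cyto. With column sums 5S rRNA was −0.62, H/ACA snoRNA −0.091, RNA5S8 −0.61 and RNU5E-1 −0.61 against cyto. Without siSSB nuc replicate 2, RN7SL1 was 0.077 against nuc, and over the left-out libraries −1.33 to 0.077.

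Leaving out 1 library at a time, 1512 to 1627 rows were higher than in nuc and 185 to 229 lower, 164 to 208 higher than in cyto and 609 to 1381 lower, 26 to 41 above both and 0 to 18 below both, 0 to 1 and 0 to 0 had an interaction, and 13 to 15 and 10 to 18 class totals passed against nuc and cyto. Deviations of same-numbered libraries had correlations of −0.49 to 0.28 over 1139 rows, and those of libraries with different numbers −0.564 to 0.485. No pairing by number was thus detected. The spread among different numbers is as wide, so these values cannot show that the samples are unpaired. With a replicate block 38 rows were above both, of which 36 were among the 40, and 14 below both, all among the 14. Over class totals and named rows, 2581 of their values under alternatives kept direction and side of the threshold, 91 passed anew, 197 no longer passed and 50 turned. The depth limits rows near the floor, such as MIR330 in nuc.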

Other observations

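Values for tRNA isotypes are given without a test. Over the rows of an isotype the median log2 difference from nuc was smallest for Phe (1.19, where 7 of 11 rows passed) and largest for His (5.54, 10 of 10), and that from cyto was −0.64 and −1.88. The place of the summed isotype between cyto (0) and nuc (1) was 0.48 for Arg and 0.77 for the initiator iMet at the extremes.

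scaRNAs, which guide snRNA modification, had no common direction. Of 23 rows tested, 12 were higher in total than in nuc, 3 lower, and 5 lower than in cyto. Over all rows tested these shares were 76.3%, 10.8% and 53.7%. SCARNA2 held 0.0325%, 0.0316% and 0.0195% of total counts against 0.00585%, 0.0101% and 0.00728% of nuc counts (log2 1.85 ± 0.38), and the scaRNA with the largest fall, SCARNA20, was at −4.78. Of the 43 U6 rows 31 were higher in total than in nuc, near the 76.3% of all rows tested. The U6 class total differed by 0.04 ± 0.34 (adjusted p = 0.91, edgeR) and RNU6-1;RNU6-9 by −0.62 ± 0.38. RNU5E-1 differed by −0.21 ± 0.26 from nuc, RNU1-1 by −1.03 ± 0.30, RNA5S8 by 1.99 ± 0.27, the 5.8S row RNA5-8SN1;RNA5-8SN4 by 2.03 ± 0.24, tRX-Cys-NNN-4-1 by 2.08 ± 0.37, SNAR-A14 by 2.18 ± 0.44 and SNAR-B1 by −0.05 ± 0.51.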
